A study of Mus musculus with 12 samples.

Results

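Integrins are cell surface receptors made of one alpha and one beta subunit, and they tie the extracellular matrix or another cell to the actin cytoskeleton. In striated muscle the laminin receptor of alpha7 (Itga7) and beta1 (Itgb1) sits at costameres, where integrin-linked kinase (Ilk), the parvins, the PINCH proteins (Lims1, Lims2), the talins and the kindlins couple it to the contractile cell. White blood cells use another set, in which beta2 (Itgb2) pairs with alphaL (Itgal), alphaM (Itgam), alphaX (Itgax) or alphaD (Itgad), and alpha4 (Itga4) pairs with beta1 or beta7 (Itgb7). Their kindlin is Fermt3, which is restricted largely to blood cells and is needed to activate integrins. The genes described here are all those on the array whose name begins with Itga or Itgb, together with Ilk, Parva, Lims1, Lims2, Tln1, Tln2, Fermt2 and Fermt3. They were chosen by name, with earlier results of these data known, and they make up 40 of 34844 gene names and 63 of 55681 probes.

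RNA of the left ventricular wall with the apex and without the septum was hybridized to 12 one-colour Agilent arrays, 1 mouse aged 6 months per array and 4 arrays per group. The mice carried floxed Nkx2-5 alleles (Floxed-Nkx2-5-ΔNeo), and a tamoxifen-inducible Cre recombinase, Cx40-creERT2, was active in the trabecular myocardium of the embryo. Tamoxifen was given to pregnant females on E10.5 and E11.5 for the Nkx2-5ΔTrbE10 mice (TrbE10, labelled Nkx2-5Δtrab) and on E13.5 and E14.5 for the Nkx2-5ΔTrbE14 mice (TrbE14, labelled Nkx2-5Δcomp), and the pups were recovered by caesarean section and raised by CD1 foster mothers. The controls are littermates of the genotype Nkx2-5-ΔNeo fl/fl:Cx40+/+, without Cre, in the study's methods and are not injected in the sample labels, so whether they had been exposed to tamoxifen is not settled by these sources. The deletion thus falls in cells that expressed Cx40 at the time of injection and in their descendants. The study describes it as reaching much of the ventricular myocardium after the embryonic injections and as confined to the subendocardial zone after the fetal ones. The arrays measured the whole wall of the adult ventricle. Values below are log2 signals after quantile normalization, apart from fold changes and the linear sums of marker lists. Levels of different probes are not compared as amounts of RNA, since probes differ in brightness for other reasons.

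Between 22888 and 26155 probes were well above background on each array, no spot was saturated, and the correlation between arrays was at least 0.968. Nkx2-5 itself lay between 11.89 and 12.23 in control, between 11.21 and 11.67 in TrbE10 and between 11.12 and 11.63 in TrbE14 hearts, below every control heart on all 8 mutant arrays. The control and TrbE14 arrays shared a slide and the TrbE10 arrays were on another, so that TrbE10 and slide cannot be told apart, whereas TrbE14 against control is a comparison within a slide. Signals of Y-linked genes were present on 1, 2 and 3 of 4 arrays in control, TrbE10 and TrbE14 hearts. Both mutants were set against the same 4 control hearts, so their changes against control are not independent. The defining cardiomyocyte markers Myh6, Actc1, Tnnt2, Tnni3, Myl2 and Ryr2 were all measured, in accord with the labelled tissue.

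Probes for 34 of the 40 genes, 48 probes in all, exceeded background clearly on 3 or more of the 4 arrays in some group. The genes without such a probe were the leukocyte subunits Itgad, Itgae and Itgb2l, the platelet subunit Itga2b, the collagen-binding subunit Itga2 and the alphaV partner Itgb8. In TrbE10 hearts 6 of the 34 genes were called higher than control by limma at an adjusted p under 0.05, namely Fermt3, Itgal, Itgam, Itgav, Itgb2 and Itgbl1, against 1.36% of all 18021 genes tested. None was called lower (0 of 34, against 0.788% of all genes). In TrbE14 hearts 1 gene, Itgal, was called higher (0.583% of all genes) and 0 lower (0.178% of all genes). In RNA of a whole tissue, more cells of a type and more RNA per cell cannot be told apart, here and in all that follows. An unadjusted p under 0.05 on any probe was found for 11 of 34 genes in TrbE10 (19.8% of all genes) and for 11 of 34 in TrbE14 hearts (16.6% of all genes).

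Counted by the brightest probe, the 4 mutant arrays all lay above the 4 control arrays for 6 of 34 genes in TrbE10 (4.94% of all genes) and for 7 of 34 in TrbE14 hearts (4.65%). They all lay below for 0 of 34 genes in either mutant (5.63% and 5.43% of all genes). The median log2 change of the 34 genes was 0.02 in TrbE10 and 0.05 in TrbE14 hearts, beside -0.03 and -0.03 for all genes. The genes that stood higher were therefore few, and most members lay near 0, as the plot of changes by role shows. Tested directly, no member differed between TrbE10 and TrbE14 hearts by limma (0 of 34, 0% of all genes), and 5 had an unadjusted p under 0.05 (7.41% of all genes). The 6 calls in TrbE10 hearts fell to 1 without control replicate 1, 3 or 4 or without TrbE10 replicate 1 or 4, to 0 without TrbE10 replicate 3, and to 3 without TrbE14 replicate 1 or 2. The single call in TrbE14 hearts was Itgbl1 in place of Itgal without control replicate 2, and it fell to 0 without control replicate 3, without TrbE10 replicate 1, 3 or 4, or without any 1 of the TrbE14 arrays.

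**Figure D1:**
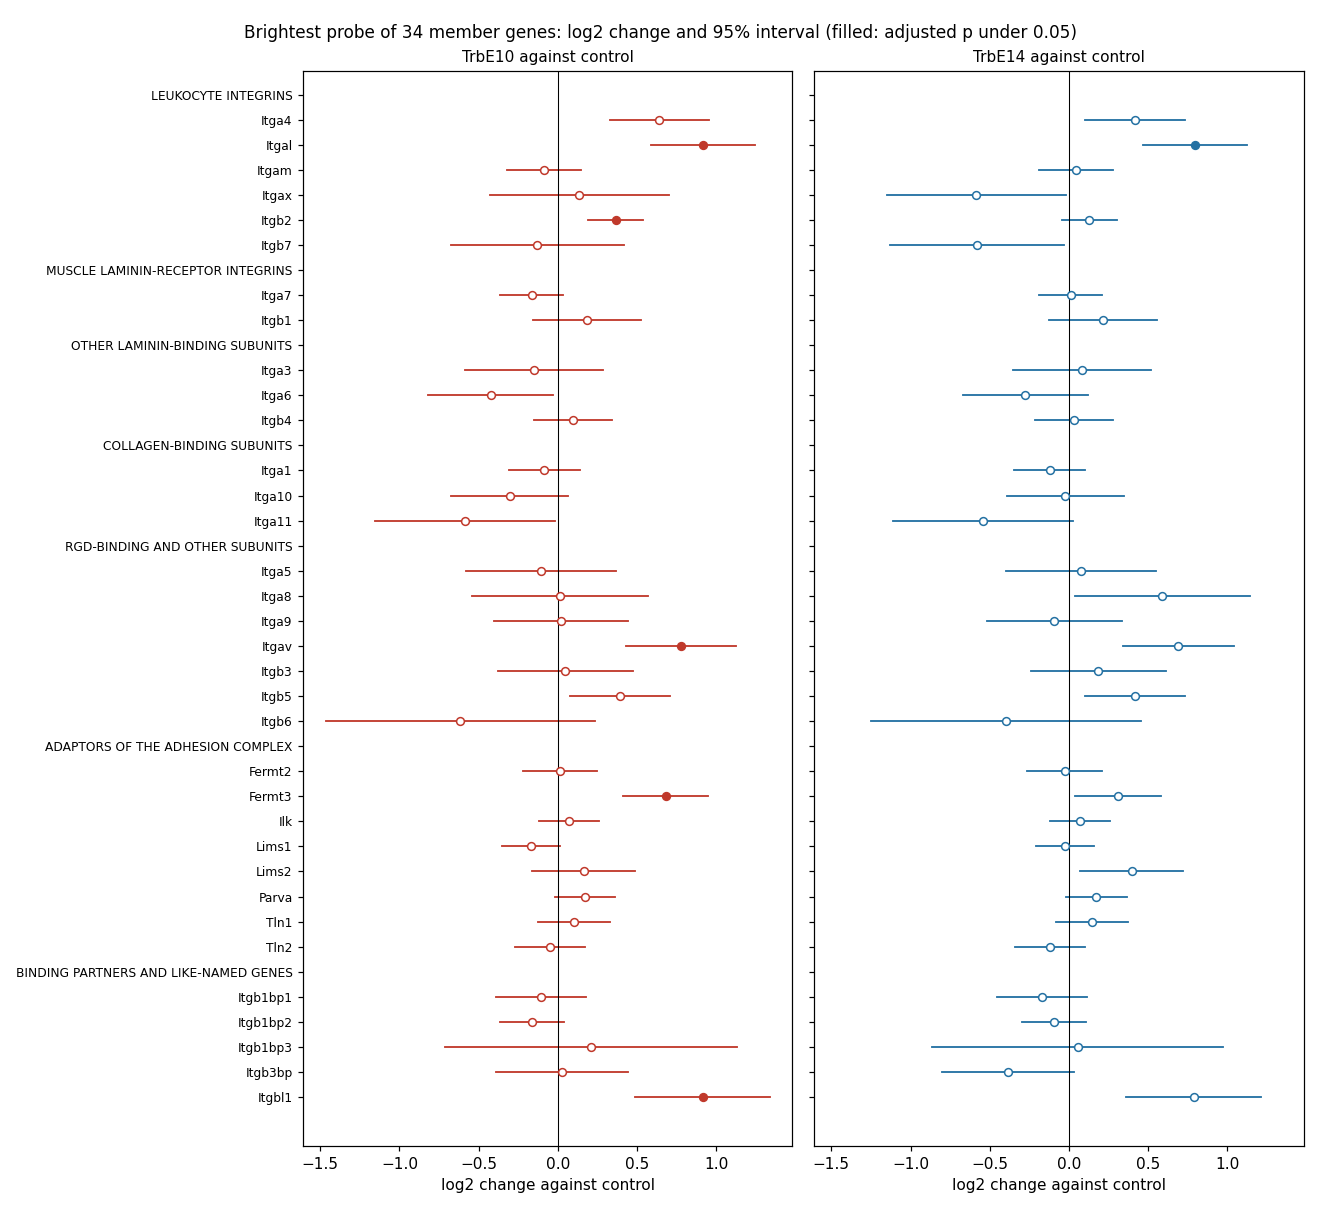
Log2 change against control (x axis) of the brightest probe of each of the 34 genes, in TrbE10 hearts on the left and in TrbE14 hearts on the right, with genes ordered by role (y axis). Points are the fitted changes, lines their 95% intervals, and filled points have an adjusted p under 0.05. Itgal is filled in both panels at 0.92 and 0.80, whereas Itga7 and Itgb1 lie between -0.17 and 0.22.

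Among the leukocyte integrins, Itgal, which forms LFA-1 with beta2 and binds ICAM-1, was called in both mutants. Its brightest probe (chr7:134477160-134477219, mm9, plus strand) read 5.67, 5.62, 5.86 and 6.17 in the control hearts. In TrbE10 hearts it read 6.94, 6.33, 6.90 and 6.83, and in TrbE14 hearts 6.64, 6.61, 6.68 and 6.58. Each of the 8 mutant hearts was above each of the 4 controls. The log2 change was 0.92 in TrbE10 (1.89-fold with a standard error of 0.15 on the log2 scale, adjusted p = 0.0131) and 0.80 in TrbE14 hearts (1.74-fold with a standard error of 0.15, adjusted p = 0.0437, both by limma). TrbE10 and TrbE14 hearts differed by 0.12 with a 95% interval from -0.21 to 0.45. Over the alternatives tried, the adjusted p of Itgal lay at 0.00231 to 0.0545 in TrbE10 and 0.0118 to 0.109 in TrbE14 hearts, where it missed the threshold in 15 of 21 alternatives. A second Itgal probe (chr7:134477064-134477123) was not well above background on any control array and was above it on all 4 arrays of each mutant. The TrbE10 hearts stood at least 2.36-fold and the TrbE14 hearts at least 1.75-fold higher, where the bound takes for each control array the lowest signal among the probes well above background or the probe's own signal if that was higher. That probe passed the filter through the mutant hearts alone, so only the bound is given for it.

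Itgb2, the common beta subunit of the leukocyte receptors (chr10:77027978-77028037, plus strand), read 7.18, 7.07, 7.23 and 7.23 in control hearts. It read 7.65, 7.55, 7.43 and 7.55 in TrbE10 and 7.32, 7.18, 7.37 and 7.35 in TrbE14 hearts. The TrbE10 hearts lay above all controls and above all TrbE14 hearts, whereas TrbE14 replicate 2 lay within the controls. The change was 1.29-fold in TrbE10 (95% interval 1.14 to 1.45, adjusted p = 0.0458 by limma) and 1.09-fold in TrbE14 hearts (0.969 to 1.23, adjusted p = 0.492). The difference between the mutants was 0.24 on the log2 scale and did not pass the adjustment (adjusted p = 0.708). Itgb2 lost its call in most alternatives tried, with adjusted p between 0.0209 and 0.109.

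Itgam, which forms the complement receptor 3 of macrophages and neutrophils with beta2, was measured by probes that disagreed. The first 30 bases of both filtered probes are shown because one begins with a run of CA repeats, in capitals, of 20 bases.
Itgam brightest probe (chr7:135261755-135261814): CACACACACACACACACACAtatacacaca
Itgam second probe (chr7:135260275-135260334): aagttcacaatcctgtaccactcattgtgg
The brightest probe also shares a stretch of 18 bases with 10 probes of other genes, and the second probe shares none. Over the whole array, 34 probes held 8 or more CA units in a row, and 33 of these (97.1%) were above background on all 12 arrays, with a median log2 signal of 11.94, against 37.0% and 4.02 for all other probes.

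On the CA-repeat probe the control hearts read 12.91, 12.82, 12.75 and 12.71, the TrbE10 hearts 12.63, 12.65, 12.70 and 12.86, and the TrbE14 hearts 13.09, 12.90, 12.78 and 12.61. The groups overlapped, and the log2 change was -0.09 in TrbE10 and 0.04 in TrbE14 hearts (adjusted p = 0.729 and 0.872 by limma). On the second Itgam probe the control hearts read 4.75, 5.10, 4.92 and 5.21, the TrbE10 hearts 5.45, 5.47, 5.79 and 5.66, and the TrbE14 hearts 5.16, 5.33, 5.23 and 5.52. All TrbE10 hearts were above all controls, and TrbE14 replicate 1 lay below control replicate 4. The log2 change was 0.60 in TrbE10 (1.51-fold with a standard error of 0.13 on the log2 scale, adjusted p = 0.0392) and 0.32 in TrbE14 hearts (1.25-fold with a standard error of 0.13, adjusted p = 0.305). The call of Itgam in TrbE10 hearts thus came from the second probe alone. Another Itgam probe (chr7:135212140-135212199) did not pass the filter, being well above background on 2 control, 1 TrbE10 and 2 TrbE14 arrays. Its mean log2 signal was 4.72 in control, 4.49 in TrbE10 and 4.60 in TrbE14 hearts, so it showed no rise, and the groups overlapped. With signals so near background, that probe was not tested and cannot decide between the filtered probes.

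Itga4, the alpha subunit of VLA-4, which binds VCAM-1 and fibronectin (chr2:79173193-79173252, plus strand), read 6.01, 5.38, 6.10 and 5.96 in control hearts. It read 6.48, 6.48, 6.54 and 6.52 in TrbE10 and 6.43, 6.21, 6.12 and 6.36 in TrbE14 hearts. Neither mutant overlapped the controls, and the 4 TrbE10 values lay within a standard deviation of 0.03, but the adjusted p stayed just above the threshold in TrbE10 (log2 change 0.64, standard error 0.14, adjusted p = 0.0508) and well above it in TrbE14 hearts (log2 change 0.42, adjusted p = 0.255). Over all alternatives the adjusted p of Itga4 in TrbE10 hearts ranged from 0.0405 to 0.130. A second Itga4 probe was not well above background on any array. Fermt3, the kindlin of blood cells (chr19:7074257-7076292, minus strand, across a splice junction), read 5.82, 6.09, 5.86 and 5.88 in control hearts. It read 6.76, 6.23, 6.60 and 6.78 in TrbE10 and 6.30, 6.22, 6.10 and 6.26 in TrbE14 hearts, again above every control. The change was 1.60-fold in TrbE10 (95% interval 1.33 to 1.93, adjusted p = 0.0210) and 1.24-fold in TrbE14 hearts (1.03 to 1.49, adjusted p = 0.306).

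The other measured leukocyte subunits were not called. Itgax, the alpha subunit of complement receptor 4, spanned 5.17 to 6.15 in controls, 5.25 to 6.18 in TrbE10 and 4.59 to 5.19 in TrbE14 hearts. The change on the log2 scale was 0.13 in TrbE10 and -0.59 in TrbE14 hearts (adjusted p = 0.839 and 0.351). Itgb7, the partner of alpha4 and alphaE on lymphocytes, spanned 6.24 to 7.21 in controls, 6.50 to 6.98 in TrbE10 and 5.90 to 6.82 in TrbE14 hearts, with log2 changes of -0.13 and -0.58 (adjusted p = 0.838 and 0.342). The 6 leukocyte genes that passed the filter, of 9 on the array, gave a median change (log2) of 0.25 in TrbE10 and 0.09 in TrbE14 hearts, and of 0.48 and 0.22 when Itgam was taken from its second probe, a choice made after the data were seen.

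**Figure D2:**
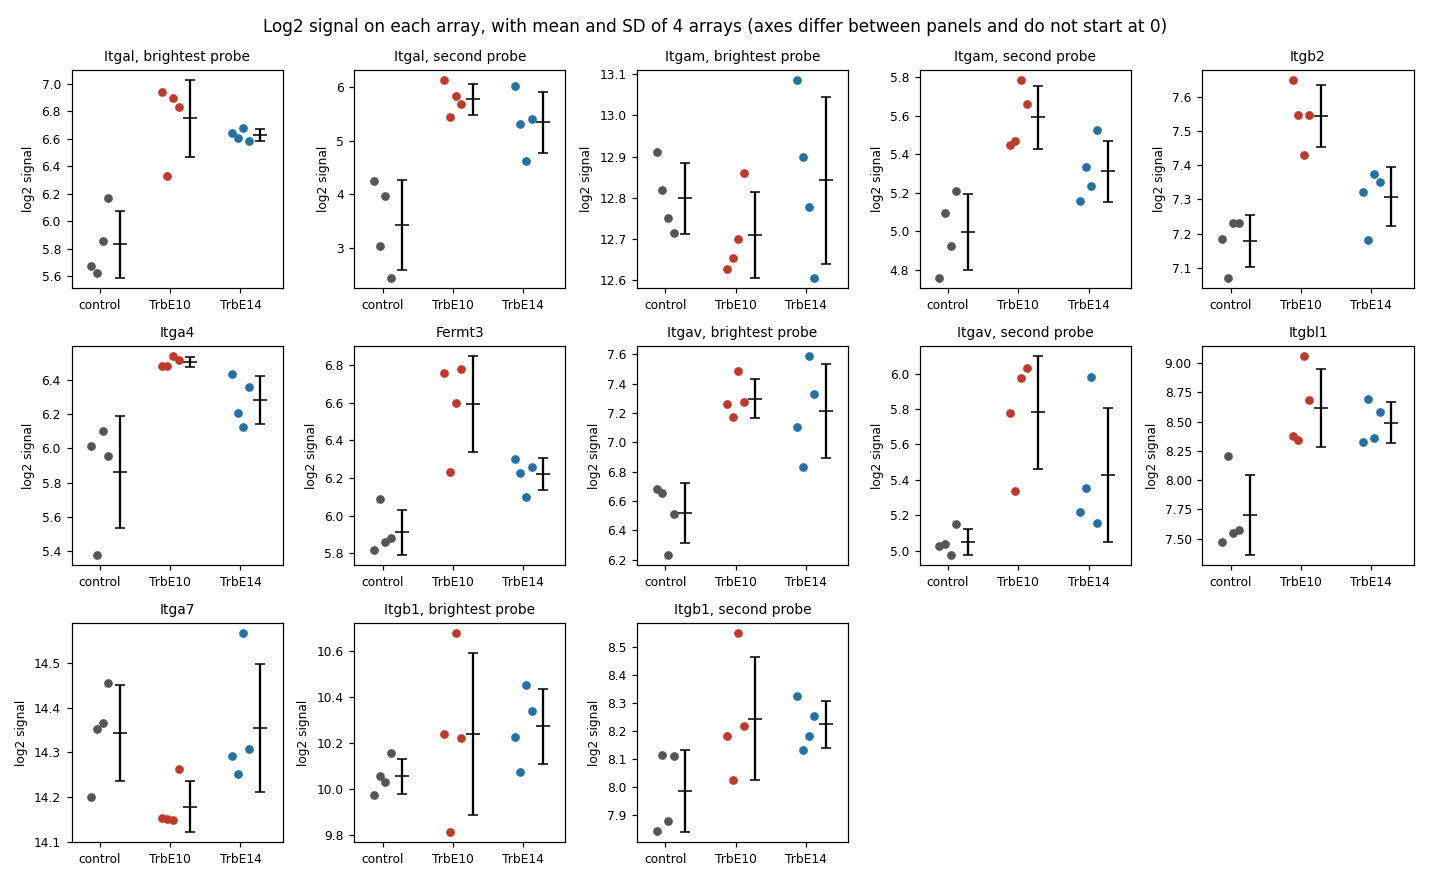
Log2 signal (y axis, scaled separately in each panel) on each of the 12 arrays for the named genes, by group (x axis), with every filtered probe of a gene in a panel of its own. Points are arrays, and the bar beside them gives the mean and SD of 4 arrays. The mutant points of the brightest Itgal probe lie at 6.33 or above and the control points at 6.17 or below, whereas the points of Itga7 and of the brightest Itgam probe overlap, and the control points of the second Itgal probe were not well above background.

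Most markers of macrophages had positive changes in both mutants, whereas Itgb7 had negative ones. The 12 macrophage markers outside the integrins were all measured. Of these 12, Cd68, C1qa, Csf1r and Fcgr1 were called higher in TrbE10 and Csf1r in TrbE14 hearts, beside 1.36% and 0.583% of all genes. The median change (log2) of 13 markers, with Itgam added on its CA-repeat probe, was 0.60 and 0.34. Csf1r, the receptor of a macrophage growth factor, stood at 1.14 and 0.92, whereas Mrc1, a receptor of resident macrophages, stood at 0.20 and -0.06. For the 12 markers without Itgam the summed linear signal spanned 10250 to 12380 in controls, 18500 to 21210 in TrbE10 and 15940 to 17610 in TrbE14 hearts, a sum to which Csf1r, at a mean log2 signal of 12.24 in controls, contributed most. Neutrophil marker sums overlapped between the groups, at 283.5 to 1617 in controls, 573.3 to 1958 in TrbE10 and 434.6 to 2079 in TrbE14 hearts, and Mpo and Ngp were not above background on any array. The sums of T cell markers also overlapped, at 339 to 499 in controls, 395.9 to 471.2 in TrbE10 and 372.9 to 447.1 in TrbE14 hearts, with Cd8a not above background on any array. Of 4 NK cell markers 3 were not above background on any array. Of 6 mast cell markers, 5 were measured and 1, Cpa3, was called higher in each mutant. Cpa3 read only 2.45 to 3.43 in controls, against 4.68 to 6.54 in TrbE10 and 4.77 to 5.66 in TrbE14 hearts. It thus passed the filter through the mutant hearts alone, and its calls add no support. Kit went the other way, at -0.16 and -0.53, and the list's median change (log2) was 1.08 and 0.90. The mast cell sum spanned 203.6 to 328.1 in controls, 310.4 to 1085 in TrbE10 and 424 to 756.5 in TrbE14 hearts. Of 5 B cell markers 3 were measured, none of them called, and their sum spanned 130.7 to 198.8 in controls, 217.3 to 304.1 in TrbE10 and 159.9 to 323.7 in TrbE14 hearts, with the defining marker Ms4a1 not above background on any array. Of 6 platelet markers 4 were measured, with medians of -0.15 and -0.14, and 1, Pf4, was called higher in TrbE10 hearts. The platelet sum spanned 2901 to 3295 in controls, 3925 to 4940 in TrbE10 and 3561 to 4700 in TrbE14 hearts, with Gp1ba and Gp6 not above background on any array. Pf4 contributed most to that sum, and Gp9, Gp1bb and Ppbp had negative changes in both mutants. The part of any of these cell types in the integrin changes was not tested.

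**Figure D3:**
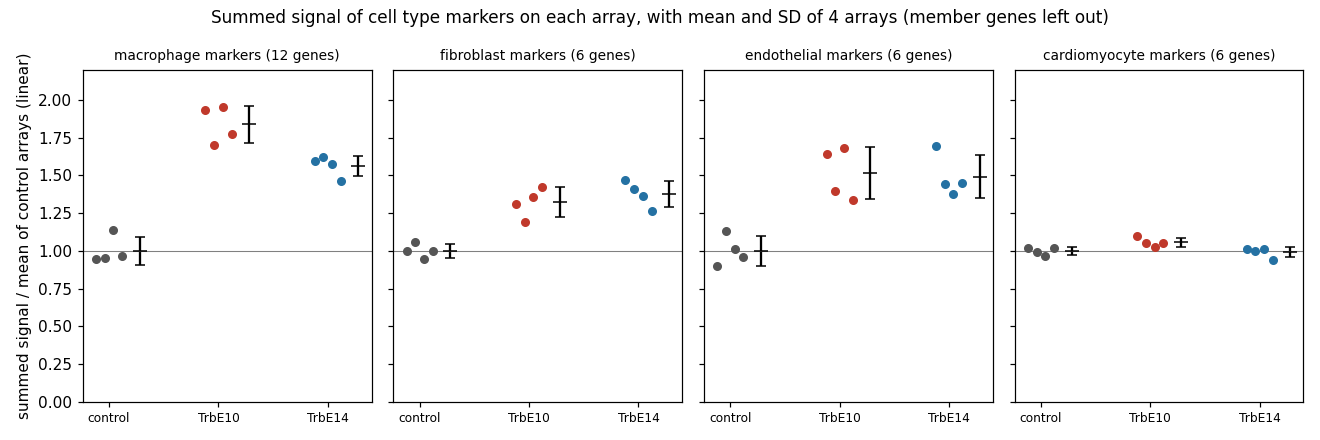
Summed linear signal of cell type markers outside the integrins, divided by the mean of the control arrays (y axis, from 0), on each array by group (x axis). Points are arrays, and bars give the mean and SD of 4 arrays. The macrophage sum lies between 1.70 and 1.95 in TrbE10 and between 1.46 and 1.62 in TrbE14 hearts, and the cardiomyocyte sum between 0.942 and 1.097 in all mutant hearts. Quantile normalization limits how far the brightest genes of the cardiomyocyte sum, Actc1 and Myh6, can move.

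The muscle laminin receptor showed no called change. Itga7 (chr10:128395274-128395333, plus strand) read 14.20, 14.35, 14.37 and 14.46 in control hearts. It read 14.15, 14.15, 14.15 and 14.26 in TrbE10 and 14.29, 14.25, 14.57 and 14.31 in TrbE14 hearts. The TrbE10 values of replicates 1, 2 and 3 lay below every control, while TrbE14 replicates 1, 2 and 4 lay within the controls and replicate 3 lay above them. The log2 change was -0.17 in TrbE10 (95% interval -0.36 to 0.03, adjusted p = 0.391) and 0.01 in TrbE14 hearts (-0.19 to 0.21, adjusted p = 0.963), and the sign in TrbE14 hearts turned to -0.04 with 75th percentile scaling. As a ratio to control these intervals run 0.778 to 1.02 in TrbE10 and 0.879 to 1.16 in TrbE14 hearts.

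Itgb1, which pairs with alpha7 in muscle and with many other alpha subunits in every cell type of the wall, was measured by a probe across a splice junction (chr8:131250081-131255976, plus strand). It read 9.97, 10.06, 10.03 and 10.16 in control, 10.24, 9.81, 10.68 and 10.22 in TrbE10, and 10.22, 10.07, 10.45 and 10.34 in TrbE14 hearts. The TrbE10 hearts spread on both sides of the controls, and in TrbE14 hearts only replicate 2 lay within them. The log2 change was 0.18 in TrbE10 (95% interval -0.16 to 0.53, adjusted p = 0.605) and 0.22 in TrbE14 hearts (-0.13 to 0.56, adjusted p = 0.548). A second Itgb1 probe gave 0.26 and 0.24 (adjusted p = 0.306 and 0.397). On that probe all TrbE14 hearts lay narrowly above all controls, at 8.13 to 8.32 beside 7.84 to 8.11, while the TrbE10 hearts overlapped the controls. The summed signal of the 6 other cardiomyocyte markers spanned 802200 to 847700 in controls, 852600 to 909500 in TrbE10 and 780600 to 841600 in TrbE14 hearts. Actc1 and Myh6 contributed most, and both had a highest control value of 17.996, at the bright end of the scale. Quantile normalization gives all arrays the same set of values there. This sum therefore had little room to move and says little about the amount of muscle.

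The remaining laminin- and collagen-binding subunits gave no call. Itga6, the alpha subunit of laminin receptors on endothelium and other cells, changed by -0.42 in TrbE10 and -0.27 in TrbE14 hearts on its brightest probe (adjusted p = 0.275 and 0.513), which shares 18 bases with 2 probes of other genes. On its second probe, which shares none, it changed by 0.18 and 0.09 (adjusted p = 0.544 and 0.786), so that the sign depended on the probe. With sex as a covariate the brightest probe was called lower in TrbE10 hearts (log2 change -0.53, adjusted p = 0.0455). Itga3 and Itgb4 lay between -0.15 and 0.10 in both mutants. The brightest probes of the 3 measured collagen-binding subunits, Itga1, Itga10 and Itga11, had negative changes in both mutants, but a second Itga1 probe stood at 0.18 in TrbE10 hearts. Itga11, a fibroblast receptor for fibrillar collagen, stood at -0.59 in TrbE10 and -0.54 in TrbE14 hearts (adjusted p = 0.292 and 0.386). Itga11 spanned 8.56 to 9.37 in controls, 8.11 to 9.01 in TrbE10 and 8.17 to 9.06 in TrbE14 hearts, so that the groups overlapped.

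Among the subunits that bind the RGD motif of matrix proteins, Itgav was called in TrbE10 hearts. This alpha subunit of the vitronectin receptors pairs with beta1, beta3, beta5, beta6 or beta8 and can release latent TGF-beta. Its brightest probe (chr2:83646133-83646192, plus strand) read 6.68, 6.65, 6.23 and 6.51 in control, 7.26, 7.17, 7.48 and 7.27 in TrbE10, and 7.10, 6.83, 7.59 and 7.33 in TrbE14 hearts, with all 8 mutant hearts above all controls. The change was 1.71-fold in TrbE10 (95% interval 1.35 to 2.18, adjusted p = 0.0359) and 1.62-fold in TrbE14 hearts (1.27 to 2.06, adjusted p = 0.0897 by limma). A second Itgav probe (chr2:83643905-83643964) read above the controls on all 8 mutant arrays, at 1.66-fold and 1.30-fold (adjusted p = 0.0852 and 0.405). It was well above background on 2 of 4 control arrays and on all 4 arrays of each mutant. It thus passed the filter through the mutant hearts alone, and its separation adds no support to the call. The difference between TrbE10 and TrbE14 hearts on the brightest probe was 0.09, with a 95% interval from -0.26 to 0.43.

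The beta partners of alphaV were not called. Itgb5, the beta subunit of a vitronectin receptor, spanned 12.53 to 12.83 in controls, 12.62 to 13.35 in TrbE10 and 13.03 to 13.19 in TrbE14 hearts. The change on the log2 scale was 0.39 in TrbE10 and 0.42 in TrbE14 hearts (adjusted p = 0.208 and 0.255), with TrbE14 hearts all above the controls. Itgb3 changed by 0.05 and 0.19 (adjusted p = 0.935 and 0.683), and Itgb6, an epithelial subunit, by -0.61 and -0.40 (adjusted p = 0.465 and 0.661). Itga8, found on smooth muscle and fibroblasts, changed by 0.01 in TrbE10 and 0.59 in TrbE14 hearts, where it ranged from 7.76 to 8.74 beside 7.16 to 7.96 in control hearts (adjusted p = 0.341). Of 4 smooth muscle markers none was called, and their median change (log2) was 0.02 in TrbE10 and 0.75 in TrbE14 hearts. Cnn1, calponin, stood at 0.02 and 0.83, Tagln at 0.01 and 0.76, and Myh11, the smooth muscle myosin heavy chain, at -0.06 and 0.63, whereas Acta2 stood at 0.69 and 0.75. Their summed signal spanned 16780 to 31540 in controls, 21600 to 47160 in TrbE10 and 25890 to 50550 in TrbE14 hearts, and their part in the value of Itga8 was not tested. Itga5 and Itga9 lay between -0.10 and 0.07 in both mutants.

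None of the adaptors that link beta1 to actin in muscle was called in either mutant (0 of 7, beside the 1.36% higher and 0.788% lower of all genes in TrbE10 and the 0.583% and 0.178% in TrbE14 hearts). Ilk, the scaffold of the complex with the PINCH and parvin proteins, spanned 12.22 to 12.40 in controls, 12.20 to 12.47 in TrbE10 and 12.24 to 12.45 in TrbE14 hearts. The change on the log2 scale was 0.07 in TrbE10 (95% interval -0.12 to 0.26) and 0.07 in TrbE14 hearts (-0.12 to 0.26). Fermt2, the kindlin of muscle and other solid tissues, changed by 0.01 and -0.03, with 95% intervals from -0.22 to 0.25 and from -0.26 to 0.21. Tln1, Tln2, Parva and Lims1 lay between -0.17 and 0.17 on their brightest probes. A dimmer Parva probe stood at 0.47 in TrbE10 hearts, all of which lay above all controls, and at 0.27 in TrbE14 hearts (adjusted p = 0.104 and 0.384). The second Tln1 probe stood at 0.42 and 0.38 (adjusted p = 0.396 and 0.485). Lims2, the PINCH protein abundant in heart, changed by 0.16 in TrbE10 and 0.40 in TrbE14 hearts (adjusted p = 0.629 and 0.283). Of the 8 adaptors, Fermt3 was the 1 called, and their median was 0.09 in TrbE10 and 0.11 in TrbE14 hearts, turning to -0.01 in TrbE10 and 0.03 in TrbE14 hearts under 75th percentile scaling.

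The rule by name also took in genes that encode no subunit. Itgbl1 encodes a secreted protein with repeats like those of the beta subunits (chr14:124373214-124373273, plus strand). It read 7.47, 8.21, 7.55 and 7.58 in control, 8.38, 8.35, 9.06 and 8.68 in TrbE10, and 8.33, 8.69, 8.36 and 8.58 in TrbE14 hearts. All mutant hearts lay above all controls, although control replicate 2 stood closer to the mutants than to the other controls. The change was 1.89-fold in TrbE10 (95% interval 1.40 to 2.53, adjusted p = 0.0420) and 1.73-fold in TrbE14 hearts (1.28 to 2.32, adjusted p = 0.112), and without control replicate 2 it was called in both. A second Itgbl1 probe was not well above background on any array. The beta1 binding proteins Itgb1bp1 and Itgb1bp2 (melusin, a muscle protein), Itgb3bp, and Itgb1bp3, named Nmrk2 in RefSeq and a kinase of NAD synthesis, lay between -0.38 and 0.21 and were not called. Markers of fibroblasts and endothelium stood beside Itgav and Itgbl1. The summed signal of 6 fibroblast markers spanned 68110 to 75950 in controls, 85760 to 102500 in TrbE10 and 90790 to 105700 in TrbE14 hearts, with medians of 0.43 and 0.42 (log2) and 1 of 6 called, Dcn, in each mutant. Dcn also contributed most to the fibroblast sum. Of 6 endothelial markers 1, Vwf, was called in each mutant, at 1.09 and 1.03, and the other five lay between -0.10 and 0.40. The endothelial medians were 0.19 and 0.26, and the endothelial sum, to which Vwf contributed most, spanned 10580 to 13280 in controls, 15740 to 19740 in TrbE10 and 16150 to 19950 in TrbE14 hearts. Their part in the changes of Itgav and Itgbl1 was not tested.

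Outside the named rule, integrin ligands and counter-receptors were followed as a list of 33 genes, of which 24 were measured. In TrbE10 hearts 0 were called higher and 1 lower, and in TrbE14 hearts 2 were called higher and 0 lower. The shares called of all genes were 1.36% and 0.788% in TrbE10 and 0.583% and 0.178% in TrbE14 hearts. Their median log2 change was 0.27 in TrbE10 and 0.17 in TrbE14 hearts. Vtn, vitronectin, a plasma and matrix ligand of alphaV receptors, spanned 10.54 to 10.90 in controls, 9.48 to 10.30 in TrbE10 and 10.01 to 10.25 in TrbE14 hearts, all mutant hearts being below all controls. In TrbE10 hearts its log2 signal fell by 0.88 (adjusted p = 0.0184) and stood at -0.66 in TrbE14 hearts (adjusted p = 0.0967). In TrbE14 hearts Fbn1, fibrillin-1, rose by 0.67 (adjusted p = 0.0142) and Col4a1, a basement membrane collagen, by 0.53 (adjusted p = 0.0438), beside 0.29 and 0.34 in TrbE10 hearts (adjusted p = 0.191 and 0.1202). Both rose above the highest control, 8.85 for Fbn1 and 12.30 for Col4a1, in all 4 TrbE14 hearts.

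The counter-receptors of the leukocyte integrins were not called. Icam1, bound by alphaL and alphaM with beta2, had log2 changes of 0.71 and 0.47 in TrbE10 and TrbE14 hearts (adjusted p = 0.119 and 0.349), and Vcam1, bound by alpha4, of 0.49 and 0.20 (adjusted p = 0.226 and 0.653). The laminin genes, ligands of alpha7, ranged from -0.24 to 0.15 over both mutants and none was called. Postn, periostin, had the largest positive change of the list in TrbE10 hearts at 1.07 and one of 1.06 in TrbE14 hearts, with adjusted p of 0.170 and 0.250 and a wide spread, from 5.55 to 6.77 in control and from 6.79 to 8.22 in TrbE10 hearts. Of 32 further focal adhesion genes, 30 were measured and 0 were called in either direction in either mutant, beside the low shares of all genes given above, with medians of 0.07 and 0.13. The largest change among them in TrbE10 hearts was that of Apbb1ip (RIAM), which recruits talin to integrins in blood cells, at 0.86 (adjusted p = 0.0908).

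**Figure D4:**
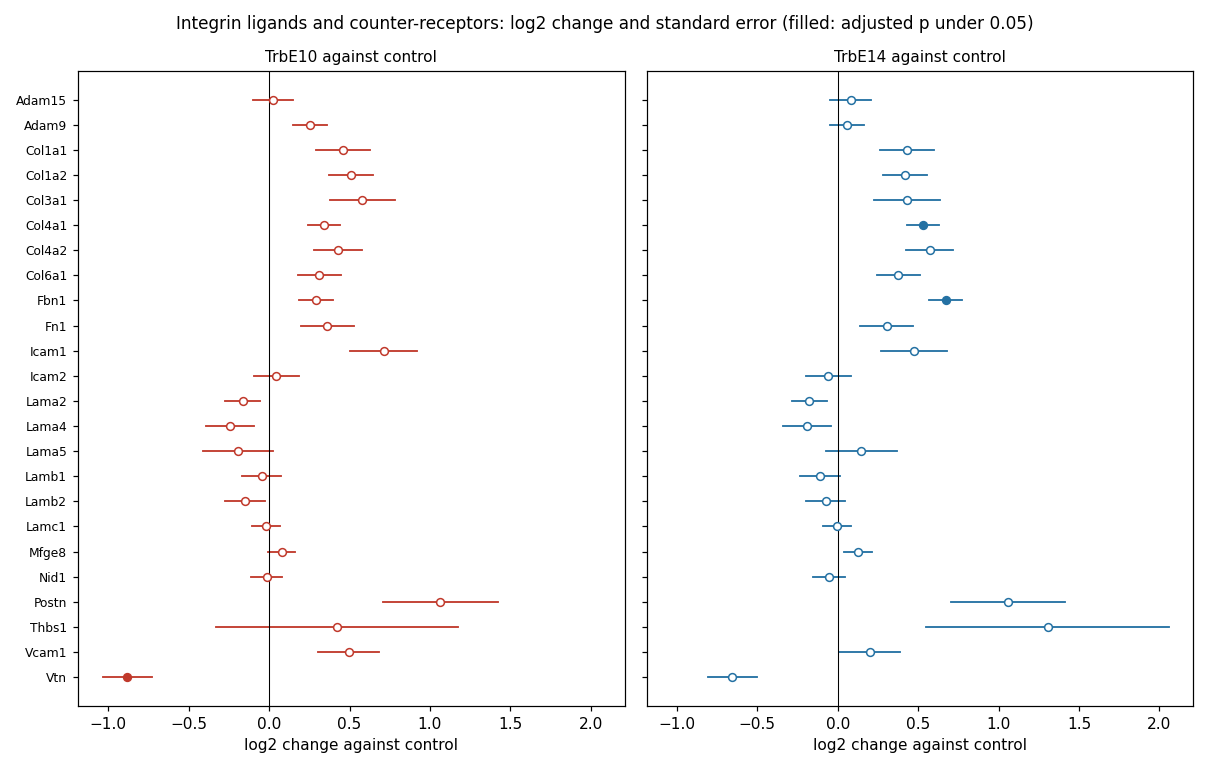
Log2 change against control (x axis) of the 24 measured integrin ligands and counter-receptors (y axis) in TrbE10 hearts on the left and TrbE14 hearts on the right. Points are fitted changes with lines of 1 standard error on each side, and filled points have an adjusted p under 0.05. Vtn lies at -0.88 in TrbE10 hearts, and Fbn1 and Col4a1 at 0.67 and 0.53 in TrbE14 hearts, while the laminin genes lie close to 0.

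For 28 of the 40 genes RefSeq promoters were at hand (GRCm38.p6), 39 genes being matched by symbol and 1 by synonym. The 250 bases before the start of transcription are shown for Itgam, Itgav and Fermt3, which were called in TrbE10 hearts, and for Itgb1, which was not. Capitals mark GAGGAA on either strand, the core letters of sites of PU.1, a factor of myeloid cells.
Itgam (chr7:128062390-128062639, plus strand): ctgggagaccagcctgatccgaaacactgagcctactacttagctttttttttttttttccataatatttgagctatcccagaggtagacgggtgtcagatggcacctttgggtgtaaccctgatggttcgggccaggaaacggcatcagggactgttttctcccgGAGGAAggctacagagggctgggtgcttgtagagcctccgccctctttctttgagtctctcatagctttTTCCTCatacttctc
Itgav (chr2:83724147-83724396, plus strand): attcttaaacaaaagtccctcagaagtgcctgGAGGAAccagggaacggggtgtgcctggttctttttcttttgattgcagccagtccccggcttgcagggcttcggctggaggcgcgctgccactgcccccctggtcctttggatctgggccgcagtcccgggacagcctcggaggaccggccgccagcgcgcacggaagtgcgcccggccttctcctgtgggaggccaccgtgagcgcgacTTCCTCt
Fermt3 (chr19:7019470-7019719, minus strand): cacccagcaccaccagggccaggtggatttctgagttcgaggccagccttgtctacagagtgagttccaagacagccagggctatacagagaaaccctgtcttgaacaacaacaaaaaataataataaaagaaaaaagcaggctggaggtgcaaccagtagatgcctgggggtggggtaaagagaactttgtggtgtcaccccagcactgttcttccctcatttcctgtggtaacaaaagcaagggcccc
Itgb1 (chr8:128685404-128685653, plus strand): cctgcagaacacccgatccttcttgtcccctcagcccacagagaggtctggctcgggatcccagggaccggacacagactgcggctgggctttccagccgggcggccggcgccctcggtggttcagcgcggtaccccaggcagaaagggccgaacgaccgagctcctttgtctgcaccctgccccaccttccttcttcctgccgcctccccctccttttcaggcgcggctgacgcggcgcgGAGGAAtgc

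GAGGAA was found 2 times each in the windows of Itgam and Itgav, 1 time in that of Itgb1 and 0 times in those of Fermt3, Itga4 and Itgbl1. Of the 33 windows of these 28 genes, 11 held it on either strand, beside 23.3% of all 32851 promoter windows of the same length. TNAAGTG, the letters of the NK2 family's preferred site, was found on either strand in 0 of the 33 windows and in 10.1% of all windows. A match of letters, or its absence, describes the sequence of these windows only.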

How the data were processed

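The authors deposited the Agilent Feature Extraction output of 12 arrays (10.5.1.1 per the file headers), with a background-subtracted intensity for every spot, and a quantile-normalized, filtered log2 table. Here the processed intensities were put on the log2 scale and quantile normalized (R 4.3.3, limma 3.58.1) as in the study's methods. Control spots were left out, outlier spots were treated as missing, and a probe's spots were averaged. Probes had to lie well above background on 75% of a group's arrays. In place of the study's SAM, limma fitted 1 mean per group to all arrays (9 residual and 2.19 prior degrees of freedom), with Benjamini-Hochberg adjustment over 24593 probes. Every adjusted p comes from this fit unless an alternative is named. A gene was called when any probe had an adjusted p under 0.05, and its values come from its brightest filtered probe. Values of every array are given for called members, for members whose arrays did not overlap at a log2 change of 0.5 or more, and for Itgam, Itga7 and Itgb1. The members and lists were chosen with earlier results of these data known. The method was tested on simulated data. With 1 mouse per array, precision is limited by the number of arrays. Probe coordinates are those of the files (mm9), and whether a probe lies in coding or untranslated sequence is not given in the sources used here. Python 3.11.15 and matplotlib 3.10.9 drew the plots. The alternatives were 75th percentile scaling, normexp (offset of 50), probes above background on 9 of 12 arrays, unfiltered probes, the authors' log2 values, fits of 2 groups, the replicate number as a block, sex as a covariate, each other probe, and each array left out.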

Additional observations from a re-analysis of the deposited data

Results flagged for a closer look

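In 27 checks of the named genes by group, each asking whether the highest or lowest of 4 arrays stood far from the rest, 2 did, where chance alone gives about 1 in 20. Itga7 read 14.26 on TrbE10 replicate 4, while the other TrbE10 arrays all read 14.15, a gap of 0.965 of the group's range. That range was small, and the value lay within the control arrays. Itgbl1 read 8.21 on control replicate 2, while the other controls read between 7.47 and 7.58, a gap of 0.856 of the range.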

How the results depend on the processing

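The 6 genes called in TrbE10 hearts became 1 without a filter, 2 in the fit of 2 groups and 2 with the replicate block, and the 1 gene called in TrbE14 hearts became 0 with normexp background correction, 0 without a filter and 0 with the replicate block. Leaving out 1 array gave 0 to 6 and 0 to 1 calls. The fit of 2 groups, which for TrbE14 is also the comparison within a slide, kept Itgal there. Between the mutants 0 members were called under every alternative. The deviations of same-numbered TrbE10 and TrbE14 arrays correlated at 0.374, 0.309, -0.008 and 0.476 for replicates 1 to 4, and those of controls with mutants at -0.242 to 0.079. Since not every pair was over 0.1, the number was not taken as a pairing. The brightest Itgal probe lost its call in TrbE10 hearts in the fit of 2 groups (adjusted p = 0.0545) and without TrbE10 replicate 3 (0.0508). In that fit of 2 groups Itgal was counted as called through its second probe alone. The same held in TrbE14 hearts with 75th percentile scaling and without control replicate 1. The second Itgal probe passed the filter through the mutant hearts alone, so calls that rest on it add no support. With sex as a covariate Itga6 was called (lower) and Itgb2 was lost (adjusted p = 0.0526) in TrbE10 hearts. In TrbE10 hearts the adjusted p ranged over the alternatives from 0.00243 to 0.0676 for Fermt3, from 0.0178 to 0.106 for Itgav and from 0.0179 to 0.111 for Itgbl1. The sign of Itgam turned on its other filtered probe, which is also the brightest probe without repeat or shared sequence, an alternative chosen after seeing the data (0.60 in TrbE10 against control, 0.28 between the mutants), and with 75th percentile scaling (-0.03 in TrbE14 hearts). Itga7 in TrbE14 hearts turned to -0.04 with that scaling, and Itgb1 between the mutants to 0.02 on its other probe. Values that turned when 1 array was left out ran from -0.06 to 0.049 for Itga7 and from -0.037 to 0.123 for Itgam in TrbE14 hearts, and between the mutants from -0.042 to 0.21 for Itgav, from -0.18 to 0.11 for Itgb1 and from -0.02 to 0.22 for Itgbl1. The causes were not tested. The residual spread of 4 arrays per group, and for Itgam, Itgal and Itgax signals near background, limit what could be called.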
